A study of Mus musculus with 9 samples.

Results

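The interferon-inducible p200 family is a group of neighbouring genes on mouse chromosome 1, and 10 of them are described here across resting and activated T cells: Mndal, Ifi203, Ifi204, Ifi206, Ifi207, Ifi208, Ifi209, Ifi213, Ifi214 and Aim2. They are 10 of 49671 genes in the deposited count table, were found there by gene identifier, and all 10 had counts and passed the filter on low counts that left 18374 genes for testing. The family was chosen from the measured values of 1 member, after Mndal was seen to be much higher with the inhibitor than without it in stimulated cells. Its values in that comparison are therefore given as a description with no test for any member, and Mndal is tested nowhere, since every comparison shares libraries with the one that singled it out.

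The cells were CD3+ T cells enriched on columns from the spleens of female F1 mice, a cross of castaneus males with C57BL/6 females in which 1 Xist copy is deleted. There were 3 groups of 3 libraries. Unstimulated cells went into TRIzol directly after enrichment. Stimulated cells had spent 48 hours on plate-bound anti-CD3 (1 µg/ml) with soluble anti-CD28 (10 µg/ml), and cells of the inhibitor group were cultured in the same way but with IMD-0354 (2.5 µM), a small-molecule blocker of IKK-beta, a kinase that switches on NF-kB. The labels name no vehicle, no cells cultured without stimulation and no age, and they do not say which F1 mice carried the deletion. Culture and stimulation therefore cannot be told apart.

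Proteins of the p200 family, also called PYHIN proteins, mostly combine an amino-terminal pyrin domain, which binds other pyrin domains, with a carboxy-terminal HIN domain, which binds DNA. Interferons raise the transcription of many of them, and the family is best known in macrophages, where Aim2 senses double-stranded DNA in the cytosol and assembles an inflammasome with the adaptor Pycard and the protease caspase-1. Mouse Ifi204 is often likened to human IFI16, a DNA sensor linked to the adaptor STING.

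The members lie between positions 173350879 and 173942672 of chromosome 1 in mm10, a stretch of 591.8 kb that begins with Aim2 (173350879 to 173466040, plus strand) and ends with Ifi203 (173920407 to 173942672, minus strand). Mndal, on the minus strand, is annotated from 173849126 to 173942491 in GENCODE M21, so that its span contains Ifi211 and overlaps Ifi203, with 37 exonic bases shared with Ifi203. The genes share sequence with one another to differing degrees. Of all 50-base stretches of a member's transcripts, the share also found in another gene's transcripts was 33.75% for Ifi209 (mainly in Ifi214), 25.64% for Ifi206, 20.89% for Ifi208, 20.02% for Ifi204 and 19.55% for Mndal. It was 15.63% for Ifi213, 14.59% for Ifi214, 12.35% for Ifi203, 7.289% for Ifi207 and 0.7424% for Aim2. For 100-base stretches it ran from 0.7897% (Ifi207) to 16.87% (Ifi209), and it was 0% for Aim2. How reads with several possible origins were counted is not given in the sources used here, so the values of single members other than Aim2 are uncertain to that extent.

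The sequence before the transcription start is shown for 5 members, because they span the range of differences between the groups. The inhibitor means of Mndal, Ifi214 and Ifi209 were 11.5, 9.94 and 4.80 times the stimulated means, for Ifi214 on few stimulated counts. These ratios describe the comparison that chose the family, and Ifi203, at 10.0, is not shown. Ifi208 kept the smallest part of its resting level in stimulated cells, and Aim2 differed least. The sequences are from RefSeq (GRCm38.p6), 100 bases on the gene's strand that end just before a start annotated by RefSeq, 5′ to 3′. Some of these starts differ from those of the M21 spans given above. The Aim2 stretch lies inside its M21 span, which begins at 173350879. The Mndal stretch also lies inside its M21 span, which begins at 173942491 on the minus strand. The stretch before the second RefSeq start of Ifi203, 173942493 to 173942592, lies just upstream of that position. Capitals mark matches to GAAANNGAAA, the core of the interferon-stimulated response element (ISRE). The stretch is chr1:173880188-173880287 (minus strand) for the upstream RefSeq start of Mndal, chr1:173535958-173536057 (minus) for Ifi214, chr1:173630759-173630858 (plus) for Ifi209, chr1:173673565-173673664 (plus) for Ifi208 and chr1:173420504-173420603 (plus) for Aim2.
Mndal: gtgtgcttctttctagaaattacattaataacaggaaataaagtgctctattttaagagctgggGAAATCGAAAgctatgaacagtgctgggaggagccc
Ifi214: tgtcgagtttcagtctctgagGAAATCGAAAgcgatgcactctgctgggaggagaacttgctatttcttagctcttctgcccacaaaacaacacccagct
Ifi209: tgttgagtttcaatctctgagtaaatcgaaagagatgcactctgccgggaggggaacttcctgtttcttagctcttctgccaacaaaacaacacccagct
Ifi208: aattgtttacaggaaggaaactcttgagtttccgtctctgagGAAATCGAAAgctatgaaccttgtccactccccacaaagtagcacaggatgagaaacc
Aim2: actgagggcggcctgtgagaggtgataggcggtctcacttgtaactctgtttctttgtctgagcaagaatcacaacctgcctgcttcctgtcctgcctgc

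Windows of 300 bases (250 before to 50 after the start) were available for 9 of the 10 members, all but Ifi204, with 11 windows in all because Mndal and Ifi203 have more than 1 start. The ISRE core, searched on both strands, was present in 7 of these 9 members and in 3.99% of the 27025 genes with a window. In all 7 a match had the same 10 letters, GAAATCGAAA, beginning 36 bases before the start in Mndal, 79 in Ifi214, 58 in Ifi208, 40 in Ifi206, 41 in Ifi207, 73 in Ifi213 and 35 at the second start of Ifi203. That exact form was present in 16 of 27025 genes (0.0592%), the 7 members among them. Ifi209 aligned with Ifi214 over the same place with the letters TAAATCGAAA, a single substitution written G1T with positions counted from the first base of the form. Aim2 had no match in the window at its RefSeq start. The members are not independent here: the 100 bases were 98% identical between Mndal and the second start of Ifi203 and 91% between Ifi214 and Ifi209. They were 85% identical between Ifi213 and Ifi208 and 81% between Ifi206 and Ifi208. Identity was 53% to 60% between Aim2 and the other windows. Many pairs without Aim2 lay in that range too, such as Ifi214 with the upstream start of Mndal (54%) and Ifi209 with Ifi207 (57%).

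Altogether 8 motif patterns were searched, and the exact form and the 100 bases shown were chosen after the windows had been seen. The interferon-gamma activated site core TTCNNNGAA was found in 0 of 9 members and 9.55% of genes. The NF-kB motif was found in 2 of 9 members, Ifi209 and the first start of Ifi203, and in 9.55% of genes. The FOXO motif TGTTTAC was found in 3 of 9 members (4.05% of genes), the short KLF motif CACCC in 5 (59.8%) and the short ETS motif GGAAG in 7 (73.9%). Letting 1 or 2 bases separate the ISRE repeats gave 7 of 9 members (7.27% of genes), and letting 2 to 4 bases separate those of the activated site gave 6 of 9 (24.2%). A match describes letters in a window and no binding was measured.

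Libraries held 34009988 to 56221174 counts, and 3 counts over a whole group of 3 libraries correspond to 0.0226, 0.0205 and 0.0228 counts scaled to library size (CPM) in the unstimulated, stimulated and inhibitor groups, a floor that covers counting error only. Inhibitor library 1 stood apart, with 30106 genes detected, whereas the other 8 had 20547 to 23223. T cell markers were present throughout, with a summed level of 2510 to 3922 CPM at rest, 3022 to 3214 after stimulation and 2959 to 3074 with the inhibitor, the most abundant being Lck, Cd3e and Trac. The unstimulated libraries also carried myeloid and dendritic cell markers at 1614 to 3913 CPM summed over 22 genes, against 49.0 to 53.4 in stimulated and 99.2 to 139 in inhibitor libraries, and B cell markers (12 genes) at 583 to 1602, 80.1 to 89.4 and 150 to 155 CPM. NK cell markers (10 genes) summed to 518 to 627, 179 to 308 and 65.4 to 78.2 CPM. In bulk samples, fewer cells of a type and less RNA per cell cannot be told apart.

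Unstimulated T cell preparations expressed the p200 genes at a combined 799 ± 62.4 CPM (SD, n = 3). After stimulation the sum was 28.5 ± 3.65 CPM, and with the inhibitor it was 96.8 ± 12.4 CPM. Without Aim2 the sums were 773 ± 63.4, 9.49 ± 1.58 and 71.5 ± 9.19 CPM. Aim2 made up 3.31% of the family's counts in unstimulated cells, 66.8% in stimulated cells and 26.1% in inhibitor cells. Mndal, Ifi203 and Ifi209 together made up 63.6%, 27.2% and 68.0%.

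**Figure D1:**
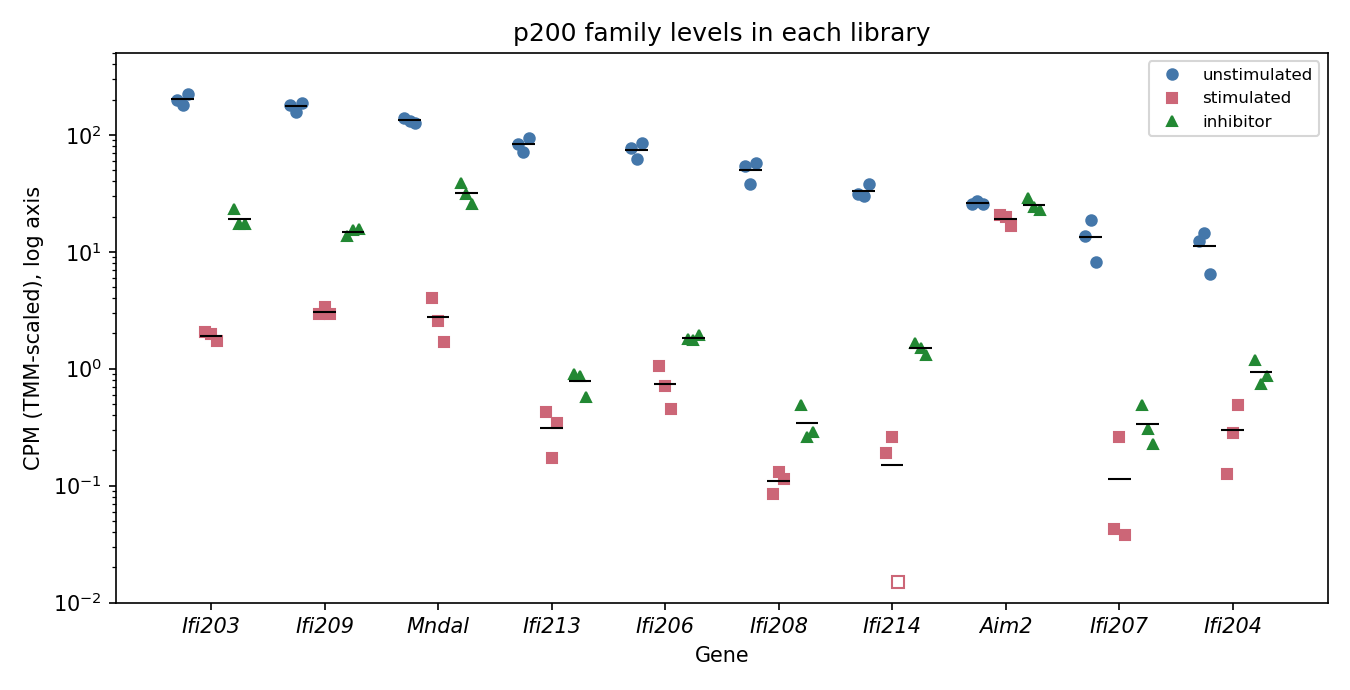
Level of each p200 gene (CPM, TMM-scaled, log axis) in the 9 libraries, with circles for unstimulated, squares for stimulated and triangles for inhibitor libraries, and a bar at each group mean. The open square at the bottom is Ifi214 in stimulated library 3, which had 0 counts. Aim2 stays between 16.6 and 28.8 CPM, while in the other 9 genes every unstimulated library lies above all stimulated and inhibitor libraries.

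Mndal kept the largest part of its resting level in the inhibitor cells after Aim2. Its levels were 140, 132 and 127 CPM in unstimulated libraries 1 to 3, 4.04, 2.57 and 1.71 after stimulation, and 38.4, 31.4 and 25.8 after stimulation with the inhibitor. The groups did not overlap. The stimulated mean (2.77 ± 1.18 CPM) was 2.09% and the inhibitor mean (31.9 ± 6.28 CPM) was 24.0% of the unstimulated mean (133 ± 6.77 CPM). The inhibitor mean was 11.5 times the stimulated mean, the difference that led to the choice of the family.

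Ifi203, whose span overlaps that of Mndal, lost more of its resting level. It was at 200, 180 and 223 CPM in unstimulated libraries, 2.05, 1.97 and 1.73 in stimulated libraries and 23.2, 17.2 and 17.2 in inhibitor libraries. Stimulated cells thus kept 0.952% and inhibitor cells 9.56% of the resting level, and the 3 groups were apart. The gene fell on stimulation (log2 fold change -6.71 ± 0.17 SE, adjusted p = 2.85e-09), and it was also lower in inhibitor cells than in unstimulated cells (-3.39 ± 0.14, adjusted p = 9.36e-08).

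Ifi209, also named Pyhin1, followed the same order of groups. It stood at 179, 157 and 187 CPM at rest, 2.92, 3.39 and 2.92 after stimulation and 13.5, 15.3 and 15.5 with the inhibitor. The libraries within each cultured group differed little, and no groups overlapped. The fold change on stimulation was -5.82 ± 0.12 (adjusted p = 1.75e-09), and that of inhibitor against unstimulated cells was -3.56 ± 0.11 (adjusted p = 2.15e-08).

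Ifi214, which shares many stretches with Ifi209, was much lower per kb of exon, over 8107 annotated exonic bases against 3547 for Ifi209. It was at 31.2, 29.9 and 37.7 CPM in unstimulated libraries and at 1.65, 1.503 and 1.31 CPM in inhibitor libraries. The stimulated libraries held 9, 12 and 0 counts, or 0.190, 0.259 and 0 CPM. The inhibitor mean was 9.94 times the stimulated mean, a ratio close to that of Ifi203 (10.0), and it rests on those few counts. Ifi214 was lower after stimulation by a log2 fold change of -7.80 ± 0.52 (adjusted p = 7.8e-07) and differed between inhibitor and unstimulated cells by -4.47 ± 0.41 (adjusted p = 1.21e-05). Its fold change on stimulation was -8.46 without stimulated library 2 and -7.17 without stimulated library 3.

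Ifi206, Ifi208 and Ifi213, which share many stretches of sequence, were well expressed in resting cells and nearly lost in both cultures. Ifi213 was at 83.6, 70.6 and 94.0 CPM at rest, 0.423, 0.173 and 0.341 after stimulation and 0.895, 0.871 and 0.574 with the inhibitor. Ifi206 was at 76.8, 62.1 and 84.8, then 1.06, 0.713 and 0.455, then 1.79, 1.74 and 1.93 CPM in the same groups. Ifi208 was at 54.3, 38.2 and 57.1, then 0.0845, 0.130 and 0.114, then 0.488, 0.261 and 0.287 CPM. In all 3 genes every inhibitor library was above every stimulated one, yet the inhibitor means were only 0.943%, 2.44% and 0.693% of the unstimulated means for Ifi213, Ifi206 and Ifi208. Ifi208 in stimulated cells, at 0.219% of its resting level, rested on 4, 6 and 6 counts. Its fold change on stimulation (-8.80 ± 0.30, adjusted p = 1.55e-08) was followed by those of Ifi213 (-8.03 ± 0.28, adjusted p = 1.8e-08) and Ifi206 (-6.66 ± 0.27, adjusted p = 4.05e-08). For inhibitor against unstimulated cells the fold changes were -7.19 ± 0.27 for Ifi208 (adjusted p = 4.87e-08), -6.74 ± 0.26 for Ifi213 (adjusted p = 6.17e-08) and -5.35 ± 0.25 for Ifi206 (adjusted p = 1.67e-07).

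Ifi204 and Ifi207 were among the lowest members per kb of exon in resting cells and varied most between the unstimulated libraries. Ifi204 was at 12.5, 14.6 and 6.42 CPM there, at 0.127, 0.281 and 0.493 in stimulated libraries and at 1.19, 0.740 and 0.861 in inhibitor libraries. Ifi207 was at 13.6, 18.6 and 8.13 CPM, then 0.0423, 0.259 and 0.0379, then 0.488, 0.305 and 0.226 CPM. Ifi207 was the only member whose stimulated and inhibitor libraries overlapped, since stimulated library 2 (12 counts, against 2 in each of the others) lay above inhibitor library 3. Both fell on stimulation, Ifi204 with a log2 fold change of -5.19 ± 0.49 (adjusted p = 7.75e-06) and Ifi207 with -6.89 ± 0.62 (adjusted p = 5.96e-06). Without stimulated library 2 the value of Ifi207 was -8.30 (adjusted p = 6.28e-06). In inhibitor against unstimulated cells the values were -3.59 ± 0.44 (adjusted p = 8.18e-05) and -5.32 ± 0.56 (adjusted p = 2.7e-05).

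Aim2, the inflammasome-forming DNA sensor, differed little between groups. Its level was 25.8, 27.4 and 25.6 CPM at rest, 20.4, 19.9 and 16.6 after stimulation and 28.8, 24.3 and 22.6 with the inhibitor. The stimulated libraries lay below all others, whereas unstimulated and inhibitor libraries overlapped. The stimulated mean was 72.2% of the unstimulated mean, a log2 fold change of -0.47 ± 0.13 (adjusted p = 0.00781). The difference between inhibitor and unstimulated cells was -0.06 ± 0.13 and did not pass the threshold (adjusted p = 0.723).

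Thus all 9 members given a test fell on stimulation and 0 rose, where 34.0% of all genes tested were called lower and 32.0% higher. In inhibitor against unstimulated cells, 8 of the 9 were lower and Aim2 was not called, where 26.1% of all genes were called lower and 26.3% higher. These comparisons share the stimulated or the inhibitor libraries with the one that chose the family. All members would have passed the filter through the unstimulated group alone, in which 9 of the 10 are high, so the counts describe the family and support nothing further. The median log2 fold change of the 10 members was -6.69 on stimulation and -4.03 in inhibitor against unstimulated cells, beside -0.05 and -0.00 over all genes.

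In the comparison that chose the family, every inhibitor library was above every stimulated library in 9 of the 10 members, Ifi207 being the exception, and 28.0% of all genes tested showed that order. Nothing is read from this count. The median log2 fold change of the 10 members was 1.60, beside 0.03 over all genes. It was 3.53 for Mndal, 3.33 for Ifi203, 3.33 for Ifi214, 2.26 for Ifi209, between 1.30 and 1.60 for Ifi204, Ifi206, Ifi207, Ifi208 and Ifi213, and 0.41 for Aim2. Without inhibitor library 1, which stood apart, the median was 1.35 and Mndal was at 3.37. Without stimulated library 2, Ifi207 was at 2.96 in place of 1.57 and Ifi214 at 3.98 in place of 3.33, and without stimulated library 3 Ifi214 was at 2.71.

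Along the chromosome the genes that kept most of their level in the inhibitor cells were not all neighbours. Aim2 at one end kept 96.1%, Mndal near the other end 24.0%, and Ifi203, Ifi209 and Ifi204 between 8.35% and 9.56%. Ifi214 kept 4.52%, while Ifi213, placed between Ifi214 and Ifi209, kept 0.943%.

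**Figure D2:**
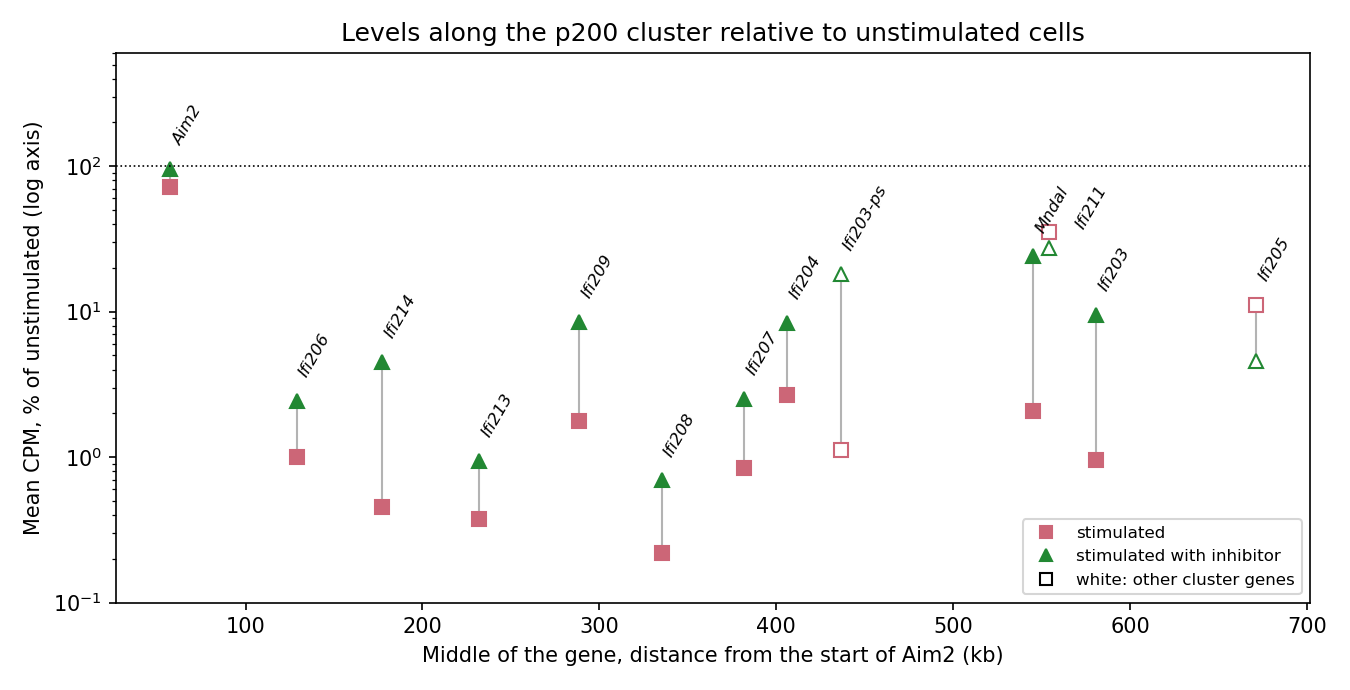
Mean CPM of each gene of the cluster in stimulated (squares) and inhibitor cells (triangles) as a percentage of its unstimulated mean (log axis), plotted at the middle of the gene in kb from the start of Aim2. Filled symbols are the 10 members and white symbols are 3 other cluster genes. The inhibitor value lies above the stimulated one for all 10 members and for Ifi203-ps, and below it for Ifi211 and Ifi205.

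The other p200 genes of the cluster did not all share this order. Ifi205 was at 6.65 ± 2.67 CPM at rest, 0.743 ± 0.426 after stimulation and 0.305 ± 0.0914 with the inhibitor. It fell on stimulation (log2 fold change -3.16 ± 0.48, adjusted p = 0.000224). Its inhibitor level against the stimulated one was -1.25 ± 0.52 with overlapping libraries. No test is given for that value, since Ifi205 shares 6.275% of its 50-base stretches with Mndal, whose values in this comparison chose the family. The pseudogene Ifi203-ps was at 8.14 ± 1.18, 0.0916 ± 0.0660 and 1.48 ± 0.171 CPM and shares 26.33% of its 50-base stretches with other genes, mainly Ifi203. It fell on stimulation (-6.46 ± 0.44, adjusted p = 8.94e-07), and its stimulated level rested on 7, 5 and 1 counts. For inhibitor against stimulated cells its log2 fold change was 4.004 ± 0.43. That value is given with no test, because this comparison chose the family and Ifi203-ps shares stretches with Ifi203. Ifi211 was at 0.348 to 2.18 CPM in the 9 libraries and Ifi202b had 0 counts in all 9 libraries.

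Levels per kb of exon allow only a rough comparison between genes, because length was taken over all annotated exons and not over the transcripts expressed. On this scale Ifi209 led in unstimulated cells at 49.2 ± 4.51 CPM per kb, followed by Mndal (36.6 ± 1.87), Ifi203 (30.0 ± 3.20) and Ifi206 (24.4 ± 3.78). Then came Ifi213 (12.1 ± 1.72), Ifi208 (9.48 ± 1.94) and Aim2 (7.50 ± 0.287), and last Ifi214 (4.06 ± 0.514), Ifi207 (3.93 ± 1.53) and Ifi204 (3.13 ± 1.19). Neighbours whose libraries overlapped were Ifi203 with Ifi206, Ifi213 with Ifi208, Ifi208 with Aim2, and the last 3 with each other. In stimulated cells Aim2 led at 5.42 ± 0.601 CPM per kb, far above Ifi209 (0.867 ± 0.0776) and Mndal (0.764 ± 0.324), which overlapped. Every other member was below 0.346 CPM per kb in each stimulated library. In inhibitor cells Mndal (8.78 ± 1.73) and Aim2 (7.20 ± 0.922) led with overlapping libraries, followed by Ifi209 (4.16 ± 0.302) and Ifi203 (2.86 ± 0.520), and the other 6 had means of at most 0.596 CPM per kb.

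The 3 unstimulated libraries differed in their marker levels, and the members fell into more than 1 order over them. Ifi203, Ifi206, Ifi208, Ifi209, Ifi213 and Ifi214 were highest in library 3 and lowest in library 2, an order shared by the summed T cell markers (3260, 2510 and 3922 CPM in libraries 1 to 3), by the interferon signalling genes (2049, 1832 and 2128 CPM) and by the interferon ligands and receptors (506, 474 and 541 CPM). Ifi204, Ifi207 and Aim2 were highest in library 2 and lowest in library 3, as were the myeloid markers (2612, 3913 and 1614 CPM), the B cell markers (925, 1602 and 583 CPM) and the antiviral interferon-stimulated genes (1532, 1572 and 1421 CPM). NK cell markers (518, 576 and 627 CPM) had neither order. Library 2 over library 3 gave a ratio of 2.27 for Ifi204 and 2.29 for Ifi207, beside 2.42 for the myeloid, 2.75 for the B cell and 0.640 for the T cell markers. It was 0.858 for the sum of the 10 members, 0.861 for the interferon signalling genes and 1.11 for the antiviral genes. Ifi205, no member, had a ratio of 2.39. For Aim2 it was 1.07, and Mndal, at 1.04, followed neither order. With 3 libraries an order is a description only, and the part of other cells in the members' levels was not tested.

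**Figure D3:**
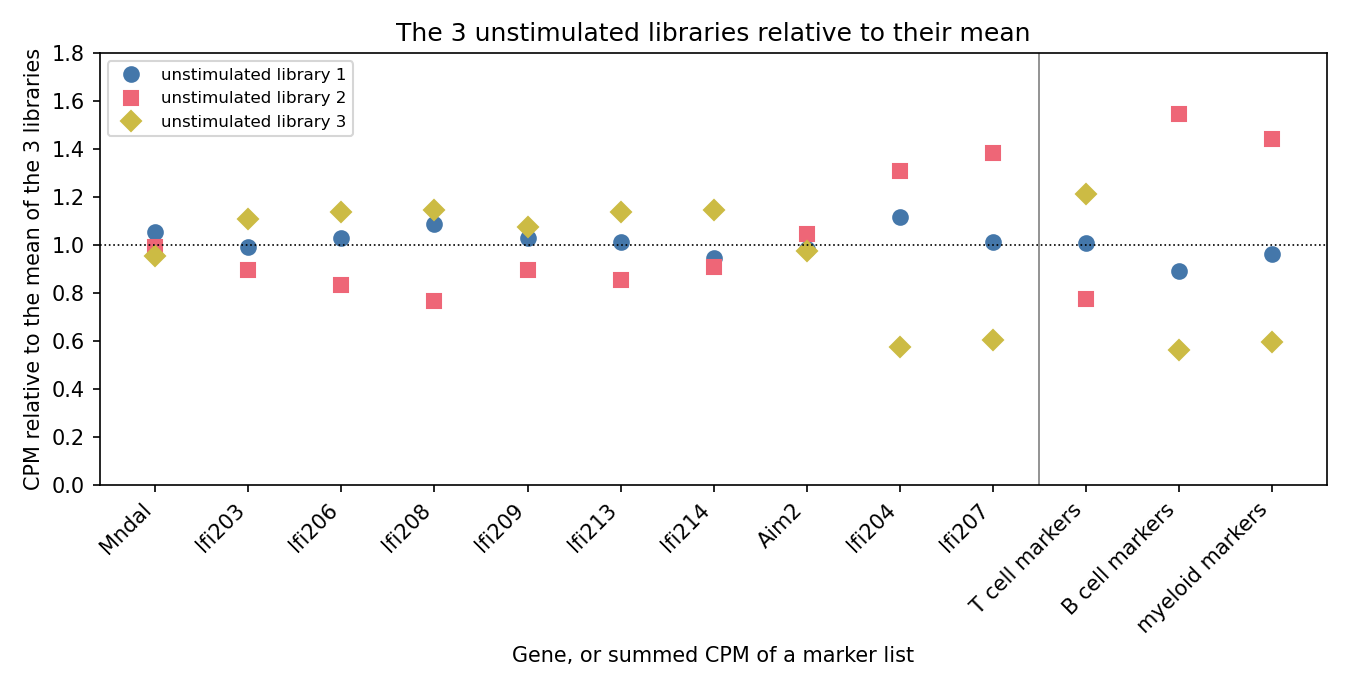
Level in each of the 3 unstimulated libraries relative to their mean, for the 10 members and, right of the line, for the summed CPM of 3 marker lists. Library 2 is lowest for 6 members and the T cell markers, and highest for Aim2, Ifi204, Ifi207 and the B cell and myeloid markers.

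On stimulation 22 of 22 myeloid markers, 11 of 12 B cell markers and 9 of 10 NK cell markers fell together with the p200 genes, while 3 of 15 T cell markers rose and 6 fell. In inhibitor against stimulated cells 8 of 22 myeloid markers rose and 1 fell, 4 of 12 B cell markers rose and 0 fell, 1 of 10 NK cell markers rose and 8 fell, and 3 of 15 T cell markers rose and 4 fell. The myeloid markers Siglech, Xcr1, C1qa and C1qb had 0 counts in all stimulated libraries, and S100a8 was at 0.369 CPM or less in every cultured library. Lyz2, an abundant myeloid marker, was at 0.866, 1.34 and 1.38 CPM in stimulated and at 3.36, 6.45 and 13.1 CPM in inhibitor libraries, thus lowest in inhibitor library 1. Mpeg1, another, was at 2.20, 1.86 and 1.59, then 7.75, 8.32 and 14.8 CPM. Of the 22 myeloid markers, 16 were highest in inhibitor library 3 and 6 in inhibitor library 1 (Cd68, Siglech, Xcr1, Csf3r, C1qa and C1qb), and their sums were 101, 99.2 and 139 CPM in inhibitor libraries 1 to 3. Inhibitor library 1 was the highest of its group for Mndal, Ifi203, Ifi204, Ifi207, Ifi208, Ifi213, Ifi214 and Aim2. Whether these cells account for any part of the members' difference was not tested.

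Genes that act with DNA sensors changed in both directions. Of 21 partners of DNA sensing and the inflammasome that were tested, 5 rose and 13 fell on stimulation (median log2 fold change -0.49). Casp1, the protease that Aim2 inflammasomes activate, fell from 22.1 ± 2.42 to 4.23 ± 0.531 CPM (-2.38 ± 0.15, adjusted p = 4.82e-07), as did Gsdmd, the pore-forming protein cleaved by it (-1.09 ± 0.09, adjusted p = 3.53e-06), Ikbke, a kinase related to Tbk1 (-1.48 ± 0.13, adjusted p = 3.82e-06), and Il1b (-7.24 ± 0.44, adjusted p = 4.12e-07), a cytokine made largely by myeloid cells. The adaptor Pycard was at 25.4 ± 1.72 and 24.3 ± 0.322 CPM and was not called (adjusted p = 0.654).

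With the inhibitor against stimulated cells 9 of the 21 rose and 7 fell (median 0.22), where 21.7% of all genes were called higher and 22.8% lower. Ikbke rose from 83.2 ± 12.7 to 199 ± 15.1 CPM (1.26 ± 0.12, adjusted p = 3.83e-05). Those that fell included Cgas, which makes the messenger that activates STING (-0.74 ± 0.13, adjusted p = 0.00135), Casp8 (-0.73 ± 0.10, adjusted p = 0.000265) and Hmgb1 (-0.84 ± 0.14, adjusted p = 0.00079). Against unstimulated cells, 2 of 21 were higher in inhibitor cells and 13 lower (median -0.66), among them Casp1 (-1.61 ± 0.14, adjusted p = 9.46e-06), Gsdmd (-0.78 ± 0.09, adjusted p = 5.99e-05) and Zbp1 (-0.98 ± 0.12, adjusted p = 0.000103), while Casp4 was higher (1.04 ± 0.15, adjusted p = 0.000251).

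Interferon-gamma itself rose on stimulation, its receptor chain Ifngr1 fell, and transcription factors downstream of the receptors changed in both directions with the inhibitor. Of 6 interferon ligand and receptor genes tested, 1 rose and 5 fell on stimulation. Ifng rose from 12.0 ± 2.27 to 260 ± 33.0 CPM (4.44 ± 0.22, adjusted p = 1.22e-07) and was lower with the inhibitor, at 125 ± 32.2 CPM (-1.05 ± 0.19, adjusted p = 0.00138). Ifngr1 fell from 238 ± 22.6 to 59.7 ± 6.16 CPM (-1.997 ± 0.10, adjusted p = 1.73e-07), and the type I receptor chains Ifnar1 (-0.89) and Ifnar2 (-0.99) fell as well. With the inhibitor 3 of the 6 rose and 2 fell, with Ifnar1 (0.47 ± 0.09, adjusted p = 0.00144) and Ifngr2 (0.40 ± 0.10, adjusted p = 0.00856) among the former and Ifngr1 (-0.52 ± 0.10, adjusted p = 0.00213) among the latter. Inhibitor against unstimulated cells had 1 higher and 3 lower: Ifng (3.38), Ifnar1 (-0.41), Ifnar2 (-0.82) and Ifngr1 (-2.52). Ifnb1 had 0 counts in all libraries.

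Of 13 genes of interferon signalling, 5 rose and 7 fell on stimulation (median -0.35). The feedback inhibitor Socs1 rose (2.41 ± 0.25, adjusted p = 1.36e-05), as did the phosphatase Ptpn2 (1.66 ± 0.09, adjusted p = 2.62e-07), while the kinase Jak1 (-1.66 ± 0.12, adjusted p = 1.64e-06) and the factor Irf7 (-2.57 ± 0.19, adjusted p = 1.67e-06) fell. With the inhibitor 6 of 13 rose and 6 fell (median 0.26). Irf1, a factor that binds the ISRE, rose from 89.8 ± 3.37 to 341 ± 35.1 CPM (1.93 ± 0.12, adjusted p = 3.11e-06) and Irf2 from 56.2 ± 2.84 to 121 ± 7.26 (1.11 ± 0.08, adjusted p = 4.68e-06), while Socs1 fell from 141 ± 18.8 to 44.8 ± 14.2 (-1.66 ± 0.24, adjusted p = 0.000386). In inhibitor against unstimulated cells 6 of 13 were higher and 5 lower (median -0.06), with Jak2 (1.01) and Irf8 (1.04) among the higher and Jak1 (-1.26) and Irf7 (-4.23) among the lower.

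Antiviral interferon-stimulated genes, another group that interferons raise, fell on stimulation in 23 of 35 cases and rose in 7 (median -1.58). Ddx60 (-5.09 ± 0.18, adjusted p = 1.66e-08), Samd9l (-4.30 ± 0.16, adjusted p = 2.09e-08) and the RNA sensor Ddx58 (-2.28 ± 0.12, adjusted p = 1.63e-07) fell, and Ly6a, a surface protein of activated T cells, rose (4.17 ± 0.14, adjusted p = 1.64e-08). With the inhibitor 6 of the 35 rose and 17 fell (median -0.64). Oas3 fell from 63.4 ± 5.44 to 8.61 ± 1.48 CPM (-2.88 ± 0.19, adjusted p = 3.54e-06), and Ifi27 (-1.99 ± 0.17, adjusted p = 1.62e-05), Eif2ak2 (-1.94 ± 0.22, adjusted p = 8.86e-05) and Trim30a (-1.47 ± 0.09, adjusted p = 2.05e-06) fell too. The median of this list lies on the other side of 0 from that of the p200 members in this comparison, and whether the lists differ was not tested. Against unstimulated cells 31 of 35 were lower in inhibitor cells and 2 higher (median -2.27), Ddx60 by -3.89, Samd9l by -3.77, Ddx58 by -2.79 and Ly6a by 2.87.

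**Figure D4:**
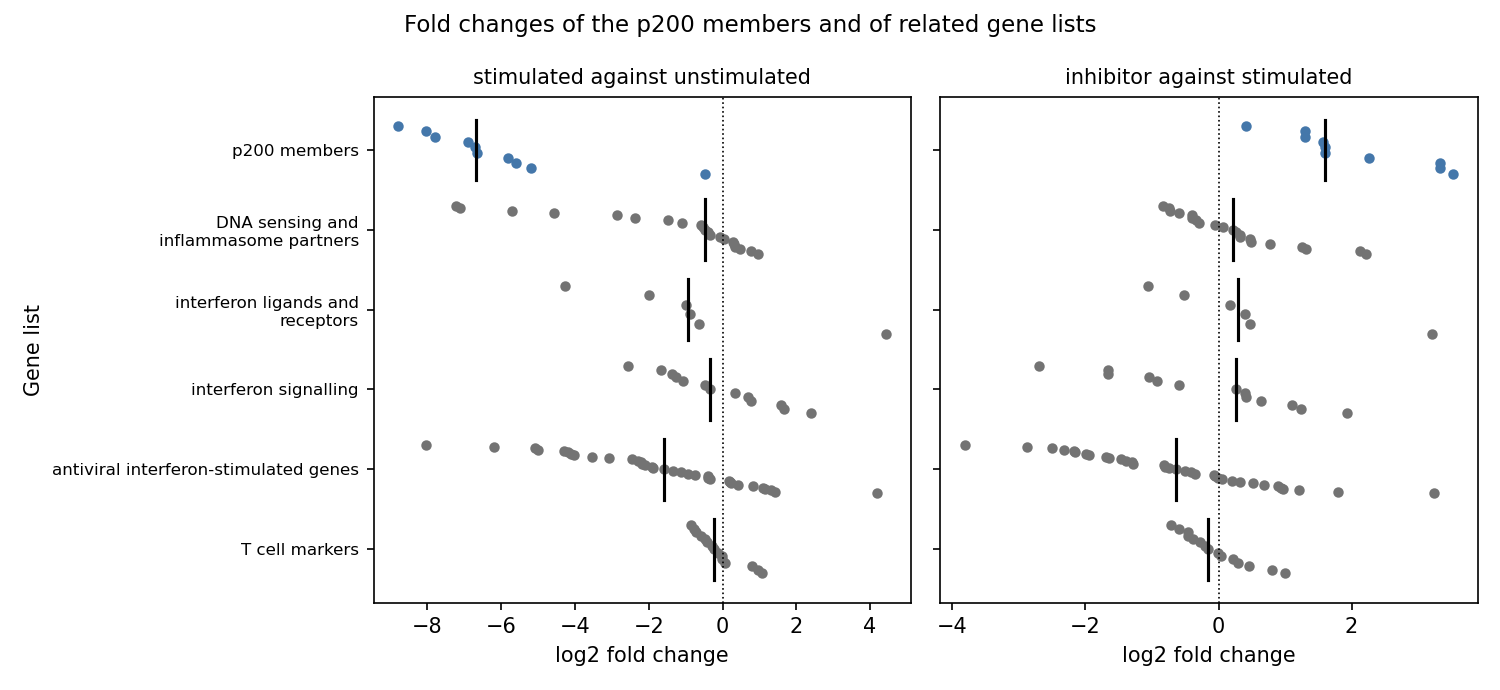
Log2 fold change of each tested gene of 6 lists (rows) on stimulation (left) and with the inhibitor against stimulated cells (right), with a vertical bar at the median of the list. On stimulation the p200 median is -6.69 and Aim2 is the single member near 0; with the inhibitor the p200 median is 1.60, beside -0.64 for the antiviral genes. The p200 values on the right are those of the comparison that chose the family.

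Genes next to the cluster gave a mixed picture. Of 13 genes flanking it on chromosome 1, 4 rose and 8 fell on stimulation, and 4 rose and 5 fell with the inhibitor. The receptor gene Slamf6 had the same order of groups as Mndal, at 132 ± 13.2 CPM at rest, 7.90 ± 2.43 after stimulation and 95.0 ± 14.7 with the inhibitor.

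The genes outside the cluster most like Mndal over the 9 libraries, by Pearson's r of log2 CPM among 9016 genes, were Ssbp2 and Zbtb20 (0.997), Washc2 (0.997), Mrtfb (0.996) and Edem3 (0.995). Zbtb20, a zinc finger repressor, was at 283 ± 21.2, 26.5 ± 3.06 and 119 ± 13.6 CPM in unstimulated, stimulated and inhibitor cells. Edem3 was at 86.0 ± 2.82, 55.6 ± 3.10 and 73.1 ± 2.94 CPM in the same groups. Pearson's r does not take in the size of a change, and each of these genes kept a larger part of its resting level in stimulated cells than Mndal. The same measure was 0.981 for Ifi203, 0.963 for Ifi214, 0.950 for Ifi209 and 0.892 for Aim2, and 0.853 to 0.884 for the other 5 members. The 9 libraries fall into 3 separate groups, so r here mainly orders the group means and carries no p.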

How the data were processed

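RNA sequencing libraries (stranded total RNA, ribosomal RNA depleted, per the labels' protocols) were available as whole-number read counts per gene, deposited by the authors in a table of 49671 genes and 9 libraries. The submitters' processing notes name STAR 2.7.1a, featureCounts and the build mm10. The annotation release, the strand setting and the handling of mates and of reads with several origins are not stated there or in the labels. Low counts were mostly even (70.6% to 78.5% of those up to 10), so both mates may have been counted and floors may be too low. Reads of castaneus alleles may be lost in such divergent copies. Allele-specific values were not analysed here.

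Gene names and positions came from GENCODE M21 (mm10). Genes were filtered with filterByExpr and scaled with TMM factors (0.925 to 1.122) in edgeR 4.0.16 (R 4.3.3). All 9 libraries entered 1 quasi-likelihood fit with the group as its only term (6 residual degrees of freedom). P-values were two-sided and adjusted by the Benjamini-Hochberg method over 18374 genes with a threshold of 0.05. Genes rose, fell or were called only past it. Levels are CPM as mean ± SD (n = 3). Fold changes are log2 values, and SE is approximate (the size of the change divided by the root of F). The fit was tested on simulated data. Each library counted as a sample, since those of a group differed by more than sampling noise (30.0 to 112 for chi-square over its degrees of freedom). The labels call them biological replicates without naming animals. The p-values therefore set group differences only against the spread among these samples, which may be technical.

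The members and all gene lists were chosen with earlier results of these data known. All p200 genes were named, and from each pathway list the 4 genes with the largest called change per comparison, if their log2 CPM averaged 3 or more and libraries did not overlap; 1 gene that met this rule is not reported here. Pycard, Slamf6's levels and the values in the closing section were chosen after they were seen. From marker lists the 3 most abundant genes were eligible, and the 5 genes most like Mndal were named. Mnda, Ifi212, Pydc3 and Pydc4 matched no M21 name. The alternatives were DESeq2 1.42.0 (its test and its size factors), upper-quartile scaling, limma 3.58.1 (voom), no filter on low counts, fits on 6 libraries, a replicate block, leaving out each library, and, added after the data were seen, leaving out unstimulated library 2 with inhibitor library 1, 17 in all.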

Additional observations from a re-analysis of the deposited data

How the results depend on the processing

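Under all 17 alternatives 9 of the 9 tested members were called lower on stimulation and 8 lower in inhibitor against unstimulated cells, with 0 called higher. The members' median with the inhibitor against stimulated cells (1.60) was 1.82 with limma voom, 1.37 without unstimulated library 2 and inhibitor library 1, and 1.35 to 2.02 when each library was left out in turn. Aim2 in inhibitor against unstimulated cells changed sign, to 0.015 (adjusted p = 0.942), without inhibitor replicate 3 (leaving out single libraries gave -0.161 to 0.015), and its adjusted p ranged from 0.313 to 0.942. Its fall on stimulation kept an adjusted p of 0.000688 to 0.0398. Upper-quartile scaling shifted the median of all genes to -0.27 on stimulation and to 0.16 with the inhibitor. Same-numbered libraries did not deviate together across all groups (r from -0.194 to 0.144). Between stimulated and inhibitor libraries r was 0.144, 0.107 and 0.078 for equal numbers and -0.105 to 0.026 for unequal ones, a hint from the data and not from the design. With a replicate block 3642 genes were called higher and 3940 lower in that comparison, against 3990 and 4192 without, 9 and 8 members were called lower in the other comparisons, and the members' median was 1.64, with no call of a member changed. Counts over all genes stayed within 1.5 times the main ones. The cause of these shifts was not tested. On stimulation Ifi214 (-7.80) was -8.77 with limma voom, and with the inhibitor (3.33) it was 4.29. Stimulated levels of Ifi207, Ifi208 and Ifi214 rest on few counts.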

Other observations

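Outside the cluster, 5 tested genes also hold the 10-base form GAAATCGAAA in their promoter window. Pnrc1 was at 368 ± 45.4, 101 ± 11.3 and 194 ± 18.2 CPM in unstimulated, stimulated and inhibitor cells. Parp11 was at 39.8 ± 3.58, 28.8 ± 1.93 and 51.3 ± 5.99 CPM, and Ripk1, a kinase of death receptor signalling, at 78.1 ± 7.68, 48.6 ± 2.20 and 73.2 ± 8.18 CPM. These 3 fell on stimulation and rose with the inhibitor (adjusted p from edgeR 0.000168, 0.00029 and 0.00134 for the rise). Ddx58 fell in both comparisons (adjusted p = 0.00495 with the inhibitor, at 21.9 ± 2.24 and 15.4 ± 1.91 CPM), and Serpinb6a rose on stimulation and fell with the inhibitor (adjusted p = 0.00289). Over all genes tested, 34.0% fell on stimulation and 21.7% rose with the inhibitor, and the share that did both is not given here. A link between the form and these changes was not tested.

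Among 142 tested genes other than the 10 members, Ifi211 included, with the ISRE core in the 100 bases before a start, 33.1% rose and 45.8% fell on stimulation, and 31.7% rose and 28.2% fell with the inhibitor. Over all genes the shares were 32.0% and 34.0%, and 21.7% and 22.8%. These sets were formed after the members' windows had been seen.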
